A study of Mus musculus with 12 samples.

Results

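The 44 genes described here build the DNA replication machinery or supply its nucleotides. They were taken by name from the gene symbols of the array's annotation, using probe sets that carry a single symbol, and fall into origin licensing, the replicative helicase, polymerases with primase, the sliding clamp with its loader, single-strand binding with strand joining and chromatin assembly, and nucleotide supply. Of these, 43 genes were matched, by 77 of the 45141 probe sets on the array. All 43 passed the filter on dim probe sets through 70 of their probe sets, among 12560 genes kept in all. Chaf1a was not analysed here.

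RNA had been measured on 12 microarrays, with 3 arrays in each of 4 groups of cultured mouse blood cells. The B6 group held wild-type hematopoietic cells and the Ts1Cje group held hematopoietic cells of the Ts1Cje mouse, a Down syndrome model trisomic for part of chromosome 16. The B6 Trib1 and Ts1Cje Trib1 groups (B6 + Trib1 WT and Ts1Cje + Trib1 WT in the titles) held acute myeloid leukaemia (AML) lines of these backgrounds expressing Trib1, a pseudokinase that promotes the degradation of C/EBP alpha. All 4 groups were grown in IMDM with IL-3 at 5 ng/ml and serum at 10%, with no other treatment, and 100 ng of RNA went into each cRNA. Trib1 and the leukaemic state came as one in these groups, so their effects cannot be told apart. The labels give neither the number of lines or mice behind a group, nor age, nor how Trib1 was introduced, so the p-values measure only how these arrays vary, which may be technical variation.

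Replication begins when the origin recognition complex, CDC6 and CDT1 load the MCM helicase onto DNA before S phase, and CDC45 and GINS later turn the loaded helicase on. Primase and polymerase alpha then start each strand, polymerases epsilon and delta extend it on the PCNA clamp that RFC loads, RPA covers single strands, and FEN1 and LIG1 finish the lagging strand. Ribonucleotide reductase, thymidylate synthase, thymidine kinase and dUTPase keep up the supply of DNA precursors. Many of these genes are transcribed at the start of S phase under E2F transcription factors, so their summed RNA is widely read as a sign of proliferation in blood progenitors and leukaemia.

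Promoters of such genes often carry E2F sites, CCAAT boxes and the CHR element of cell-cycle genes, so spellings of these motifs were searched on both strands. In the 250 bases before the transcript start, 8 of 42 RefSeq promoter windows of the replication genes (19.0%), each for a different gene among the 36 with a window, held an E2F spelling (TTTCCCGC, TTTCGCGC, TTTGCCGC or TTTGGCGC, on either strand), against 14.6% of 96 windows of other replication and nucleotide genes and 1.86% of all 32851 windows. The CCAAT box stood in 57.1% of the windows of the replication genes and in 33.8% of all windows, and the spelling TTTGAA of the CHR element in 11.9% and 16.0%. A match is a description of the letters and not a measured site. 100-base stretches are shown for 5 genes that span licensing, the helicase and polymerase alpha, so that the position and the overlap of the matches can be seen. Capitals mark the matches, and the sequences run 5′ to 3′ on the strand of the gene (GRCm38.p6).
Orc1: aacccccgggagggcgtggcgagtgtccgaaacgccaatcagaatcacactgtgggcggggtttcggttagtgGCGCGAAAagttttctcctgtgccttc
Cdc6: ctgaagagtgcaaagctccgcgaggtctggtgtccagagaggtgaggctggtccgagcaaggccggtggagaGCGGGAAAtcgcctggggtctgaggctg
Mcm5: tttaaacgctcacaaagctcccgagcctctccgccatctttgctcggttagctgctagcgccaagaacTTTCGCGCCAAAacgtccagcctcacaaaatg
Mcm6: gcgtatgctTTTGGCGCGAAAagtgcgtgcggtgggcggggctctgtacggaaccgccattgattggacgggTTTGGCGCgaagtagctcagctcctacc
Pola1: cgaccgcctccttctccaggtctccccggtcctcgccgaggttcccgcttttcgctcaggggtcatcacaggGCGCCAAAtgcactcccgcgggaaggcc
These stretches lie at chr4:108579354-108579453, plus strand (Orc1), chr11:98907941-98908040, plus strand (Cdc6), chr8:75109288-75109387, plus strand (Mcm5), chr1:128359725-128359824, minus strand (Mcm6) and chrX:93632266-93632365, minus strand (Pola1), all before the start of the gene. Mcm6 held 3 matches, of which 2 overlap, and the 2 matches of Mcm5 overlap as well. Mcm7, Gins3 and Rfc3 held 1 match each.

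Intensities had a median between 30.5 and 32.0 and a maximum between 8041 and 8685 on each array, in arbitrary units, and values near or below the 40th percentile of 22.0 to 23.5 are dim. Across genes, arrays of the same group correlated at 0.997 to 0.999 (12 pairs), and arrays of different groups at 0.915 to 0.993 (54 pairs). Ptprc, Laptm5 and Coro1a, which mark blood cells, summed to between 6359 and 7722 on every array. Of 6 stroma genes Col1a1, Col1a2 and Col3a1 did not pass the filter, and all 6 together summed to between 130 and 193. The mix of blood cell markers differed between groups, and its values are given beside the results they move with. In bulk RNA, fewer cells in S phase and less replication RNA per cell cannot be told apart.

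In cells without Trib1, most replication genes were lower in Ts1Cje than in B6. At an adjusted p under 0.05 (limma, Benjamini-Hochberg adjustment over all 12560 genes), 33 of 43 fell, against 29.3% of all genes, and 0 rose, against 23.3% of all genes. At an unadjusted p under 0.05 the counts were 35 lower and 1 higher (Cdc45), against 31.9% and 27.6% of all genes. The median log2 difference of the 43 genes was -0.28, where the median of all genes was 0.0090, and the differences ran from -0.53 for Pole to 0.11 for Cdc45. With arrays centred on their medians, 28 fell and Cdc45 and Tk1 rose, while 20.2% of all genes fell and 37.6% rose. No gene changed by 2-fold. On the Ts1Cje arrays 1, 2 and 3, 40, 41 and 39 of the 43 genes lay below the B6 mean, with median log2 distances of -0.21, -0.29 and -0.26. On the B6 arrays themselves 30, 11 and 22 did, with medians of -0.017, 0.014 and -2.7e-05. On the B6 Trib1 arrays that number was 14, 14 and 8, and on the Ts1Cje Trib1 arrays it was 19, 18 and 19. The Ts1Cje group therefore stood apart as the low one, and the plot of all 43 genes by array shows it as a blue block.

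**Figure D1:**
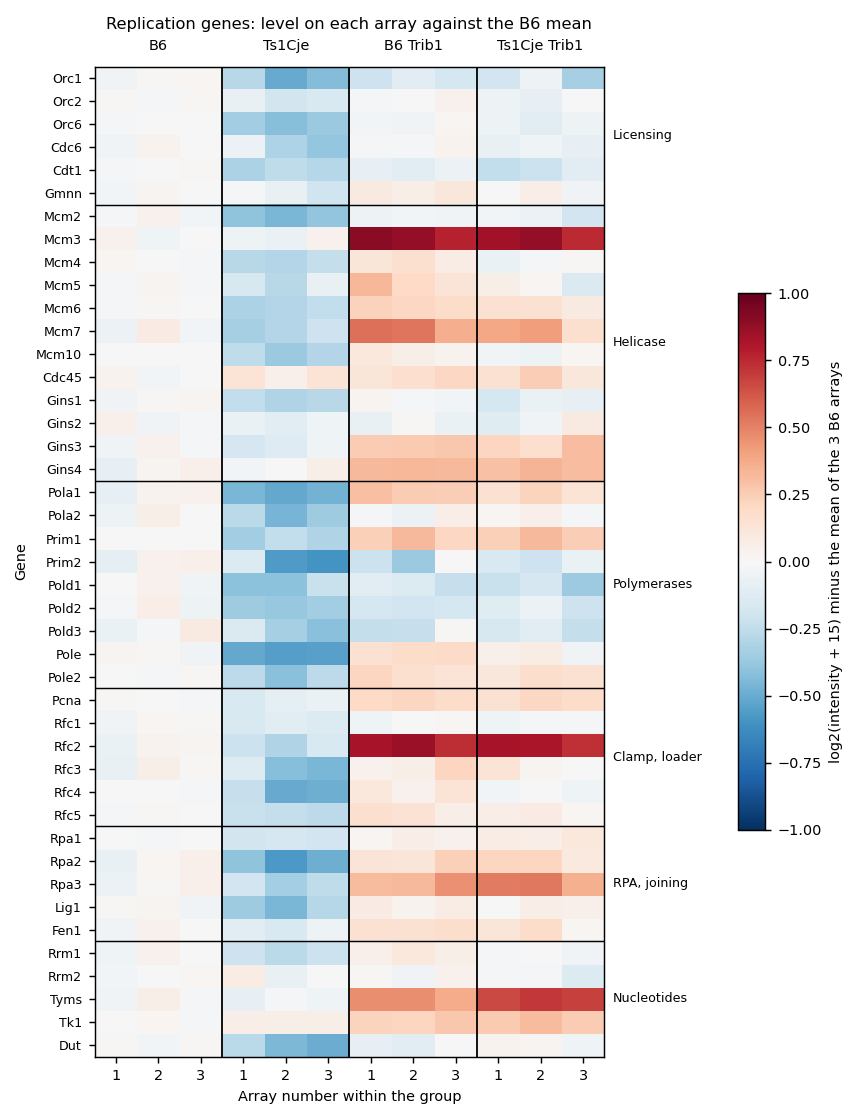
Level of each of the 43 replication genes (vertical axis, grouped by function) on each of the 12 arrays (horizontal axis), as log2(intensity + 15) minus the mean of the 3 B6 arrays; red is higher and blue is lower. On the 3 Ts1Cje arrays 39 to 41 genes lay below the B6 mean, while Mcm3 and Rfc2 are the reddest on the Trib1 arrays.

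Markers of other blood cells moved with this comparison. The summed intensity of 6 B-cell genes was 4192 to 4393 on the B6 arrays and 1518 to 1692 on the Ts1Cje arrays, and 5 of the 6 fell. All 8 neutrophil granule genes rose, from sums of 20425 to 20687 to sums of 32382 to 32794. Of 8 monocyte and macrophage genes 7 rose and 1 fell, and all 5 stem and progenitor genes fell, from sums of 1323 to 1368 to sums of 752 to 778. Of 5 mast cell and basophil genes 4 rose, from sums of 2445 to 2504 to sums of 4182 to 4434. Of 5 megakaryocyte genes 4 fell, of 5 T and NK cell genes 3 fell and 1 rose, of 3 stroma genes 1 fell, and of 3 erythroid genes 1 fell. The erythroid sums, over the 4 genes on the array of which 3 passed the filter, were 1090.1 to 1139 in B6 and 540 to 593 in Ts1Cje. The part of all these markers in the lower replication genes was not tested.

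Among the 6 licensing genes, 5 fell in Ts1Cje against B6, with a median log2 difference of -0.27, and Gmnn, whose product blocks CDT1, gave -0.095 (SE 0.049, adjusted p = 0.116). Orc6, the smallest subunit of the origin recognition complex, measured 415, 417 and 419 on the B6 arrays, 325, 306 and 319 on the Ts1Cje arrays, 409, 407 and 422 on the B6 Trib1 arrays and 402, 386 and 402 on the Ts1Cje Trib1 arrays. All Ts1Cje arrays lay below all other arrays, and the B6 and B6 Trib1 arrays overlapped. The log2 difference between Ts1Cje and B6 was -0.38 (SE 0.036, adjusted p = 1.92e-06), and with Trib1 it was -0.055 (SE 0.036, adjusted p = 0.333). Cdt1, the loading factor that brings MCM to origins, measured 1397, 1401 and 1419 on the B6 arrays, 1124, 1175 and 1148 on the Ts1Cje arrays, 1324, 1297 and 1349 on the B6 Trib1 arrays and 1183, 1206 and 1305 on the Ts1Cje Trib1 arrays. Its Ts1Cje arrays were again the lowest, below the Ts1Cje Trib1 arrays, which in turn overlapped the B6 Trib1 arrays. Cdt1 gave -0.29 (SE 0.041, adjusted p = 6.97e-05) without Trib1 and -0.10 (SE 0.041, adjusted p = 0.0929) with it. Orc1, the ATP-binding subunit that is renewed in each cell cycle, measured 96.1, 99.6 and 100.3 on the B6 arrays, 78.8, 65.0 and 69.3 on the Ts1Cje arrays, 83.4, 90.2 and 85.6 on the B6 Trib1 arrays and 84.6, 94.6 and 75.3 on the Ts1Cje Trib1 arrays. The B6 arrays were the highest and the Ts1Cje arrays the lowest on average, but Ts1Cje array 1 exceeded Ts1Cje Trib1 array 3. Orc1 fell by 0.41 on the log2 scale in Ts1Cje (SE 0.069, adjusted p = 0.00029). Its other kept probe set, with a mean of 56.4 in B6, gave 0.032 (adjusted p = 0.731) in a limma fit to all kept probe sets. Cdc6, the loading ATPase, fell with -0.25 (SE 0.065, adjusted p = 0.00588), and Orc2, another subunit of the complex, with -0.14 (SE 0.039, adjusted p = 0.0102). The Orc2 call was lost under median centring (-0.058).

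Few licensing genes passed with Trib1 in the B6 background. Of the 6, 0 rose in B6 Trib1 against B6 (limma, 0 also at an unadjusted p under 0.05), against 34.1% of all genes, and Orc1 alone fell, with -0.17 (SE 0.069, adjusted p = 0.0489), a call lost under quantile normalization, median centring, an offset of 1, no filter, the mean of the probe sets, a variance trend with robust moderation and the replicate number as a block or without any one of B6 arrays 1, 2 and 3, Ts1Cje array 3, B6 Trib1 arrays 1, 2 and 3 and Ts1Cje Trib1 array 1 (log2 differences from -0.19 to -0.045). Gmnn rose there under quantile normalization (0.12) and median centring (0.19), and Orc2 under median centring (0.11). In the Ts1Cje background 3 of the 6 rose, against 34.1% of all genes. These were Orc6 with 0.31 (SE 0.036, adjusted p = 4.25e-06), Orc1 with 0.21 (SE 0.069, adjusted p = 0.0153) and Cdc6 with 0.18 (SE 0.065, adjusted p = 0.0258). The other kept Orc1 probe set gave 0.053 there (limma, adjusted p = 0.562). The Orc1 rise was lost without Ts1Cje array 2 (0.16) and without Ts1Cje Trib1 array 2 (0.14), and the Cdc6 rise was lost under a fit to the groups compared alone or without any one of Ts1Cje arrays 2 and 3 and Ts1Cje Trib1 arrays 1 and 2 (log2 differences from 0.12 to 0.19). Cdt1 gave 0.097 (SE 0.041, adjusted p = 0.0547), Orc2 gave 0.092 (SE 0.039, adjusted p = 0.0567) and Gmnn gave 0.10 (SE 0.049, adjusted p = 0.0846).

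The helicase genes split. Of 12, 7 fell in Ts1Cje against B6, namely Mcm2, Mcm4, Mcm5, Mcm6, Mcm7, Mcm10 and Gins1, while Mcm3, Cdc45, Gins2, Gins3 and Gins4 did not pass. MCM2 to MCM7 form the ring that unwinds DNA, MCM10 helps to activate it, and CDC45 and the GINS proteins are its partners at the fork. Mcm2 measured 1050.3, 1100.4 and 1047 on the B6 arrays, 801, 771 and 805 on the Ts1Cje arrays, 1029.9, 1047 and 1039 on the B6 Trib1 arrays and 1046, 1024 and 933 on the Ts1Cje Trib1 arrays. The Ts1Cje arrays lay below every other array, and the other 3 groups lay close together. Mcm2 had the largest fall of the group, with -0.42 (SE 0.044, adjusted p = 5.38e-06), against -0.055 (SE 0.044, adjusted p = 0.445) with Trib1. Mcm6 measured 2211, 2249 and 2239 on the B6 arrays, 1788, 1823 and 1883 on the Ts1Cje arrays, 2625, 2583 and 2544 on the B6 Trib1 arrays and 2485, 2479 and 2380.2 on the Ts1Cje Trib1 arrays. Here the Ts1Cje arrays were lowest, B6 came next, and both Trib1 groups were above B6 without overlap. Mcm6 gave -0.28 (SE 0.035, adjusted p = 2.19e-05) between Ts1Cje and B6. Mcm4, Mcm7, Mcm10 and Gins1 fell by 0.27, 0.28, 0.30 and 0.28 on the log2 scale. Mcm5 fell with -0.17 (SE 0.066, adjusted p = 0.0444), a call lost under quantile normalization, median centring, an offset of 1 and no filter or without any one of B6 arrays 1, 2 and 3, Ts1Cje arrays 1 and 2, B6 Trib1 array 2 and Ts1Cje Trib1 array 2 (log2 differences from -0.18 to -0.091).

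Mcm3 gave a different result on each of its probe sets, and the one that stood for the gene measured 463, 436 and 451 on the B6 arrays, 434, 429.8 and 464 on the Ts1Cje arrays, 856, 838 and 778 on the B6 Trib1 arrays and 818, 841 and 764 on the Ts1Cje Trib1 arrays. The B6 and Ts1Cje arrays overlapped, the B6 Trib1 and Ts1Cje Trib1 arrays overlapped, and every Trib1 array was above every array without it. Mcm3 gave -0.023 (SE 0.05, adjusted p = 0.709) between Ts1Cje and B6, and rose in both Trib1 comparisons, with 0.85 (SE 0.05, adjusted p = 4.89e-09) in the B6 background and 0.85 (SE 0.05, adjusted p = 3.44e-09) in the Ts1Cje background. In a limma fit to all kept probe sets, used for such values here, the other Mcm3 probe set fell in Ts1Cje against B6, with -0.28 (adjusted p = 0.00645), as did the mean of the probe sets (-0.15). The rise in the B6 background was lost without B6 Trib1 array 1 (0.20) and without B6 Trib1 array 2 (0.17), where the other probe set stood for the gene. Gins4 gave 0.010 (SE 0.041, adjusted p = 0.843) between Ts1Cje and B6, Gins3 -0.11 (SE 0.045, adjusted p = 0.0522), Gins2 -0.076 (SE 0.052, adjusted p = 0.229) and Cdc45 0.11 (SE 0.044, adjusted p = 0.0532). Cdc45 lies on chromosome 16, as do Mcm4 and Rfc4, each outside the segment present in an extra copy.

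With Trib1, 8 of the 12 helicase genes rose in the B6 background and 9 in the Ts1Cje background, against 34.1% of all genes in each comparison. Mcm7 rose by 0.48 and 0.60 on the log2 scale, Gins4 by 0.33 and 0.30, and Gins3 by 0.26 and 0.34. Cdc45 and Mcm5 rose in the B6 background only by this threshold, with 0.17 (SE 0.044, adjusted p = 0.00499) and 0.22 (SE 0.066, adjusted p = 0.0102); in the Ts1Cje background they gave 0.062 (SE 0.044, adjusted p = 0.249) and 0.15 (SE 0.066, adjusted p = 0.0716). Their interactions were -0.11 (SE 0.062, adjusted p = 0.175) and -0.075 (SE 0.093, adjusted p = 0.517), so neither passed. Under quantile normalization and median centring the interaction of Cdc45 did pass, with -0.22 and -0.20 (limma, adjusted p = 0.00974 and 0.0222). The rise of Cdc45 in Ts1Cje against B6 also passed under both of these (0.20 and 0.19), with the mean of the probe sets and with a stricter filter. The Mcm5 rise in the B6 background was lost without B6 Trib1 array 1 (0.17) and that of Mcm4 without B6 Trib1 array 2 (0.098). Mcm10 did not pass in that background, but it rose under quantile normalization (0.12), median centring (0.17) and the mean of the probe sets (0.085).

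The polymerase and primase genes gave the most even result. All 9 fell in Ts1Cje against B6, with a median log2 difference of -0.36 and a range from -0.53 to -0.30. Pole, the catalytic subunit of the leading-strand polymerase epsilon, measured 292, 289.9 and 279 on the B6 arrays, 197, 191 and 193 on the Ts1Cje arrays, 320.3, 328 and 329.9 on the B6 Trib1 arrays and 297, 303 and 279 on the Ts1Cje Trib1 arrays. All Ts1Cje arrays lay far below the rest, and the B6 Trib1 arrays were the highest. Pole gave -0.53 (SE 0.038, adjusted p = 1.66e-07) without Trib1, the largest fall of the 43 genes, and -0.15 (SE 0.038, adjusted p = 0.0143) with it. Pola1, the catalytic subunit of polymerase alpha, measured 567, 614 and 620.0 on the B6 arrays, 434, 415 and 428 on the Ts1Cje arrays, 742, 718 and 714 on the B6 Trib1 arrays and 669.9, 702 and 661 on the Ts1Cje Trib1 arrays. Its 4 groups did not overlap, in the order Ts1Cje, B6, Ts1Cje Trib1 and B6 Trib1, although the last pair did not pass the test (-0.095 (SE 0.043, adjusted p = 0.142)). Between Ts1Cje and B6 it gave -0.48 (SE 0.043, adjusted p = 1.08e-06). Prim1, the catalytic primase subunit, measured 695, 693 and 691 on the B6 arrays, 541, 581 and 561 on the Ts1Cje arrays, 822, 873 and 804 on the B6 Trib1 arrays and 819, 869.8 and 825 on the Ts1Cje Trib1 arrays. The Ts1Cje arrays were below the B6 arrays, both Trib1 groups were above B6, and the Trib1 groups overlapped. Prim1 gave -0.30 (SE 0.042, adjusted p = 6.39e-05) between Ts1Cje and B6 and 0.0088 (SE 0.042, adjusted p = 0.922) with Trib1.

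The remaining polymerase and primase genes followed. Pola2 fell by 0.36, Pole2 by 0.31, and Pold1, Pold2 and Pold3 of the lagging-strand polymerase delta by 0.35, 0.36 and 0.30 on the log2 scale. Prim2, the large primase subunit, fell by 0.43 with the widest interval of the 43 genes (-0.68 to -0.19). The interval rests on the spread in all 4 groups. Prim2 read 439, 321 and 314 on the Ts1Cje arrays (SD 70.3), and its SD on the B6 Trib1 arrays was 57.5. The Pold3 fall was lost under removal of cross-hybridizing probe sets (-0.051), without B6 array 1 (-0.10) and without B6 array 3 (-0.067). In these cases another Pold3 probe set stood for the gene.

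In B6 Trib1 against B6, 4 of the 9 polymerase and primase genes rose and 2 fell. These shares, 44.4% and 22.2%, were near the 34.1% and 31.1% of all genes. Pola1, Prim1, Pole and Pole2 rose by 0.27, 0.26, 0.18 and 0.17 on the log2 scale, while Pold2 fell by 0.18 and Pold1 by 0.16. The other kept Prim1 probe set gave 0.014 in this comparison (limma, adjusted p = 0.874). The Pold2 fall was lost under median centring (-0.075). That of Pold1 was lost under quantile normalization, median centring and the replicate number as a block or without any one of B6 arrays 1, 2 and 3 and B6 Trib1 arrays 2 and 3 (log2 differences from -0.17 to -0.054). In the Ts1Cje background 7 of the 9 rose, led by Pola1 with 0.65 (SE 0.043, adjusted p = 1.08e-08), Prim1 with 0.57 (SE 0.042, adjusted p = 4.3e-08) and Pole with 0.56 (SE 0.038, adjusted p = 1.78e-08). Pold1 and Pold3 gave 0.096 (SE 0.061, adjusted p = 0.197) and 0.13 (SE 0.078, adjusted p = 0.172). The Prim2 rise of 0.29 was lost under an offset of 1, no filter and a fit to the groups compared alone or without any one of B6 arrays 2 and 3, Ts1Cje arrays 2 and 3, B6 Trib1 array 1 and Ts1Cje Trib1 arrays 1, 2 and 3 (log2 differences from 0.21 to 0.32).

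All 6 genes of the clamp and its loader fell in Ts1Cje against B6, with a median log2 difference of -0.23. Rfc4, a small loader subunit, fell most and measured 539, 540.4 and 534 on the B6 arrays, 456, 375 and 379 on the Ts1Cje arrays, 579, 553 and 593 on the B6 Trib1 arrays and 527, 536 and 521 on the Ts1Cje Trib1 arrays. Ts1Cje array 1 lay between the other Ts1Cje arrays and the remaining groups, all of which were above it. Rfc4 gave -0.41 (SE 0.061, adjusted p = 0.000102) without Trib1 and -0.12 (SE 0.061, adjusted p = 0.197) with it. Rfc5, another small subunit, measured 674, 688 and 680.1 on the B6 arrays, 582, 576 and 564 on the Ts1Cje arrays, 763, 754 and 712 on the B6 Trib1 arrays and 711, 722 and 688 on the Ts1Cje Trib1 arrays. The Ts1Cje arrays were the lowest and both Trib1 groups lay above B6. Ts1Cje Trib1 array 3 exceeded B6 array 2 by less than the rounding of these values (688 for each). Rfc5 gave -0.24 (SE 0.037, adjusted p = 0.000145). Pcna, the sliding clamp itself, measured 3958, 3901 and 3894 on the B6 arrays, 3525, 3682 and 3750.2 on the Ts1Cje arrays, 4497, 4551 and 4458 on the B6 Trib1 arrays and 4358, 4514 and 4452 on the Ts1Cje Trib1 arrays. The 4 groups came in the order Ts1Cje, B6 and then both Trib1 groups, which overlapped. Pcna gave -0.10 (SE 0.035, adjusted p = 0.0279) between Ts1Cje and B6, the smallest fall of the group, and the call was lost under median centring and a fit to the groups compared alone or without any one of B6 arrays 1, 2 and 3 and Ts1Cje array 1 (log2 differences from -0.11 to -0.022). Rfc1, the large subunit, fell by 0.13, a call lost under median centring (-0.053), and Rfc3 fell by 0.34.

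Rfc2 showed the largest change of any replication gene, and it went with Trib1. It measured 881, 946 and 937 on the B6 arrays, 792, 745 and 826 on the Ts1Cje arrays, 1641, 1685 and 1547 on the B6 Trib1 arrays and 1641, 1638 and 1538 on the Ts1Cje Trib1 arrays. Each Trib1 array was far above each array without Trib1, the Trib1 groups overlapped, and Ts1Cje lay below B6. The rise was 0.81 (SE 0.05, adjusted p = 8.86e-09) in the B6 background and 1.01 (SE 0.05, adjusted p = 5.03e-10) in the Ts1Cje background, which made Rfc2 the 1 gene of the 43 that changed by 2-fold or more in any comparison. Between Ts1Cje and B6 it fell with -0.22 (SE 0.05, adjusted p = 0.00226). All 6 clamp and loader genes rose with Trib1 in the Ts1Cje background, where Rfc3, Rfc4, Rfc5 and Pcna gave 0.39, 0.38, 0.29 and 0.28 on the log2 scale. Within the B6 background Rfc2, Pcna (0.20 (SE 0.035, adjusted p = 0.000251)) and Rfc5 (0.12 (SE 0.037, adjusted p = 0.011)) rose, while Rfc1, Rfc3 and Rfc4 gave -0.0097, 0.11 and 0.094 and did not pass. The 3 of 6 that rose in the B6 background compare with 34.1% of all genes. Rfc3 and Rfc4 did rise there under quantile normalization (0.21 and 0.13) and median centring (0.21 and 0.20). The other kept Rfc3 probe set fell there, with -0.32 (limma, adjusted p = 0.00855), and gave 0.14 (limma, adjusted p = 0.218) in the Ts1Cje background. The Rfc1 rise in the Ts1Cje background was lost under the mean of the probe sets (0.060).

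Of the 5 measured genes for single-strand binding and strand joining, 4 fell in Ts1Cje against B6, with a median log2 difference of -0.26 over the 5. Rpa2, the middle subunit of the RPA trimer, measured 465, 498 and 507 on the B6 arrays, 368, 324 and 346 on the Ts1Cje arrays, 537, 534 and 579 on the B6 Trib1 arrays and 572, 570.1 and 525 on the Ts1Cje Trib1 arrays. The Ts1Cje arrays lay below all others, and B6 lay below both Trib1 groups, which overlapped. Rpa2 gave -0.49 (SE 0.055, adjusted p = 9.8e-06) without Trib1 and 0.015 (SE 0.055, adjusted p = 0.895) with it. Rpa3, the small RPA subunit, measured 838, 879 and 903 on the B6 arrays, 763, 688 and 729 on the Ts1Cje arrays, 1091, 1096 and 1204 on the B6 Trib1 arrays and 1259, 1263 and 1119 on the Ts1Cje Trib1 arrays. The order was Ts1Cje, B6 and then the overlapping Trib1 groups. Rpa3 gave -0.26 (SE 0.059, adjusted p = 0.00233) between Ts1Cje and B6, and rose with Trib1 by 0.37 in the B6 background and 0.73 in the Ts1Cje background. Lig1, the ligase that seals Okazaki fragments, measured 855, 864 and 829 on the B6 arrays, 659.8, 615 and 696 on the Ts1Cje arrays, 899.7, 873 and 896 on the B6 Trib1 arrays and 854, 892 and 881 on the Ts1Cje Trib1 arrays. Its Ts1Cje arrays were the lowest, and the Ts1Cje Trib1 arrays overlapped both B6 and B6 Trib1. Lig1 gave -0.37 (SE 0.044, adjusted p = 1.77e-05). Rpa1, the large RPA subunit, fell by 0.18, a call lost under median centring (-0.10). Fen1, the flap nuclease, gave -0.11 (SE 0.045, adjusted p = 0.0601).

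All 5 rose with Trib1 in the Ts1Cje background, from 0.22 for Fen1 to 0.73 for Rpa3 on the log2 scale. Within the B6 background Rpa2, Rpa3 and Fen1 rose, by 0.16, 0.37 and 0.16. These 3 of 5 compare with 34.1% of all genes. The Rpa2 rise there was lost without B6 array 1 (0.13) and without B6 Trib1 array 3 (0.12). Rpa1 gave 0.045 (SE 0.032, adjusted p = 0.233) and Lig1 0.065 (SE 0.044, adjusted p = 0.207) in the B6 background. Both did rise there under median centring (0.15 and 0.17).

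Nucleotide supply was the least uniform group. Of 5 genes, Dut and Rrm1 fell in Ts1Cje against B6, and Rrm2, Tyms and Tk1 did not pass, with a median log2 difference of -0.047. The share that fell, 40%, was near the 29.3% of all genes. Dut encodes dUTPase, which keeps uracil out of DNA, and measured 1698, 1654 and 1695 on the B6 arrays, 1393, 1229.9 and 1191 on the Ts1Cje arrays, 1592, 1563 and 1675 on the B6 Trib1 arrays and 1723, 1717 and 1634 on the Ts1Cje Trib1 arrays. The Ts1Cje arrays were the lowest, although spread, and the other 3 groups overlapped. Dut gave -0.40 (SE 0.053, adjusted p = 3.88e-05) without Trib1 and 0.071 (SE 0.053, adjusted p = 0.408) with it. Rrm1, the large subunit of ribonucleotide reductase, gave -0.23 (SE 0.037, adjusted p = 0.000162) and Rrm2, its S-phase partner subunit, -0.0038 (SE 0.047, adjusted p = 0.95). The Rrm1 fall was lost without any one of B6 arrays 1, 2 and 3 and Ts1Cje array 1 (log2 differences from -0.018 to 0.044), since a second Rrm1 probe set then stood for the gene.

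Tyms, the thymidylate synthase gene, measured 618, 662 and 625 on the B6 arrays, 600.4, 625 and 617 on the Ts1Cje arrays, 883, 884 and 824 on the B6 Trib1 arrays and 1014, 1048 and 1028 on the Ts1Cje Trib1 arrays. The B6 and Ts1Cje arrays overlapped, B6 Trib1 lay above both, and every Ts1Cje Trib1 array was above every B6 Trib1 array. Tyms was the 1 replication gene that rose in Ts1Cje Trib1 against B6 Trib1, with 0.25 (SE 0.041, adjusted p = 0.000553), where it gave -0.047 (SE 0.041, adjusted p = 0.34) without Trib1. It also rose with Trib1 by 0.43 and 0.73 in the B6 and Ts1Cje backgrounds, but without cross-hybridizing probe sets the value in the B6 background was -0.090. Between Ts1Cje and B6 the mean of its probe sets fell, with -0.23 (limma, adjusted p = 0.000632). Tk1, the thymidine salvage kinase, measured 381, 388 and 376 on the B6 arrays, 400.3, 397 and 398 on the Ts1Cje arrays, 447, 444 and 462 on the B6 Trib1 arrays and 460.4, 479 and 458 on the Ts1Cje Trib1 arrays. The Trib1 groups overlapped, and they lay above both groups without Trib1. Tk1 rose with Trib1, with 0.23 (SE 0.034, adjusted p = 5.36e-05) in the B6 background and 0.22 (SE 0.034, adjusted p = 7.77e-05) in the Ts1Cje background, and gave 0.060 (SE 0.034, adjusted p = 0.153) between Ts1Cje and B6. By the probe set that stood for it Rrm2 passed in no comparison, with 0.0063 and -0.052 on the log2 scale with Trib1 in the B6 and the Ts1Cje background, but its other kept probe set did. That one gave 0.27 (adjusted p = 0.00143) in Ts1Cje against B6, 0.28 (adjusted p = 0.000838) in B6 Trib1 against B6 and an interaction of -0.33 (adjusted p = 0.00437). The mean of both passed in the same comparisons, and under median centring Rrm2 rose in B6 Trib1 against B6 (0.11) with an interaction of -0.15 that passed.

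**Figure D2:**
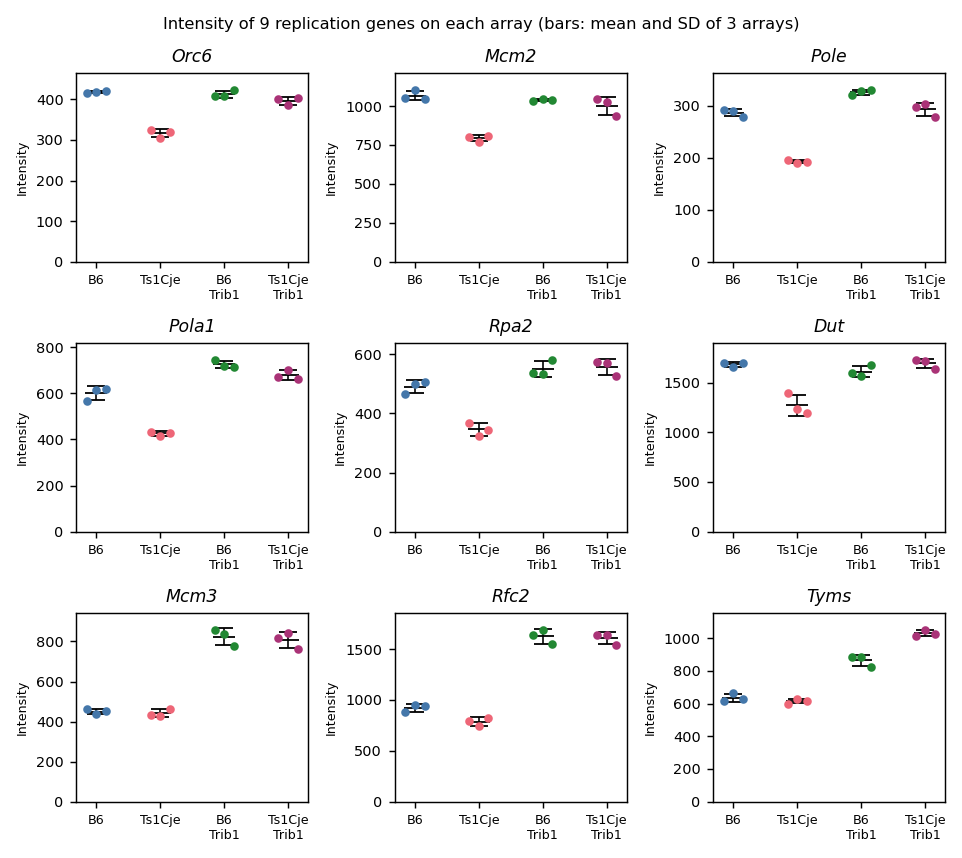
Intensity (vertical axis, linear, arbitrary units) of 9 replication genes on each array, by group (horizontal axis); points are arrays and bars the mean and SD of 3 arrays. In Orc6, Mcm2, Pole, Pola1, Rpa2 and Dut the Ts1Cje arrays are the lowest, whereas Mcm3, Rfc2 and Tyms are set apart by the Trib1 arrays.

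In the leukaemia lines the genotype difference was small. Between Ts1Cje Trib1 and B6 Trib1, Tyms rose and Mcm4, Mcm5 and Pole fell, while 39 of the 43 genes did not pass. That is 1 gene higher, against 11.9% of all genes, and 3 lower (limma, 9 at an unadjusted p under 0.05), against 9.63% of all genes, so neither share of these calls stood above the background. At the unadjusted threshold the 9 compare with 14.4% of all genes, and under the variance trend with robust moderation 6 fell, against 10.0% of all genes. Mcm4 gave -0.14 (SE 0.037, adjusted p = 0.0139), Mcm5 -0.25 (SE 0.066, adjusted p = 0.0166) and Pole -0.15 (SE 0.038, adjusted p = 0.0143). The Mcm4 call was lost without B6 Trib1 array 2 (-0.12) and without Ts1Cje Trib1 array 1 (-0.12), that of Mcm5 without B6 Trib1 array 1 (-0.19) and without Ts1Cje Trib1 array 3 (-0.18) and that of Pole without Ts1Cje Trib1 array 3 (-0.11). The median of the 43 differences was -0.032, where all genes had 0.00048, and the 95% intervals of the 43 genes together spanned -0.39 to 0.34. A difference as large as the fall of Pole without Trib1 was thus outside the interval of every gene, but smaller ones were not.

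Neutrophil and monocyte markers went the other way between these lines. Between Ts1Cje Trib1 and B6 Trib1 all 8 granule genes fell, from sums of 16859 to 17053 in B6 Trib1 to sums of 8469 to 8652 in Ts1Cje Trib1, and 7 of 8 monocyte and macrophage genes fell. B-cell genes summed to 157 to 185 in B6 Trib1 and 1 of 6 rose. Of 5 mast cell and basophil genes 3 rose and 1 fell, and of 5 megakaryocyte genes 3 fell. Of 3 erythroid genes 1 rose and 1 fell, and of 5 T and NK cell genes 1 rose. Of 5 stem and progenitor genes 1 fell, as did 1 of 3 stroma genes. Their part in the replication values was not tested.

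The genotype comparisons without and with Trib1 share no arrays. Of the 43 genes, 30 fell without Trib1 and did not pass with it, 3 fell in both (Mcm4, Mcm5 and Pole), Tyms rose with Trib1 alone, and 9 passed in neither. In 38 of the 43 the difference was closer to 0 with Trib1, a count that was not made for all genes. Calls between genotypes were fewer with Trib1 among all genes too. Without Trib1 23.3% of all genes rose and 29.3% fell, and with Trib1 11.9% rose and 9.63% fell. The interaction subtracts the difference between genotypes without Trib1 from the one in the Trib1 lines. It was positive in 27 of 43 genes at an adjusted p under 0.05, against 28.4% of all genes, and negative in 0 (limma, 0 also at an unadjusted p under 0.05), against 20.2% of all genes, with a median of 0.21 where all genes had 0.0082. When arrays were centred on their medians instead, 16 genes were positive and 2 negative (Cdc45 and Rrm2), against 19.2% and 29.5% of all genes, with a median of 0.12, and the median of all genes moved from 0.0082 to -0.083.

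The interaction was most even among polymerases and primase, where all 9 genes were positive with a median of 0.38. Rpa2 had the largest value of the 43, 0.50 (SE 0.078, adjusted p = 0.000174), although its other kept probe set gave 0.027 (adjusted p = 0.683), followed by Prim2 with 0.48 (SE 0.16, adjusted p = 0.0251) and Dut with 0.47 (SE 0.076, adjusted p = 0.000217). Pold2, Pole and Pola1 gave 0.41 (SE 0.062, adjusted p = 0.000137), 0.39 (SE 0.054, adjusted p = 7.83e-05) and 0.39 (SE 0.06, adjusted p = 0.000179). Of the licensing genes 3 of 6 were positive (Orc1, Orc6 and Cdt1), of the helicase genes 4 of 12 (Mcm2, Mcm6, Mcm10 and Gins1), and of the clamp and loader 4 of 6 (Rfc2, Rfc3, Rfc4 and Rfc5). The other kept Orc1 probe set gave -0.022 (limma, adjusted p = 0.878). The helicase share of 33.3% was near the 28.4% of all genes. Rpa1, Rpa2, Rpa3 and Lig1 were 4 of 5, and Rrm1, Tyms and Dut 3 of 5. Mcm3, Gins4 and Tk1, which rose with Trib1 in both backgrounds, gave -0.0054, -0.025 and -0.015, with intervals of -0.16 to 0.15, -0.15 to 0.10 and -0.12 to 0.089. The Prim2 call was lost without any one of B6 arrays 2 and 3, Ts1Cje arrays 2 and 3, B6 Trib1 arrays 1 and 2 and Ts1Cje Trib1 array 3 (log2 differences from 0.40 to 0.47). The calls of 15 of the 27 genes held under every alternative tried, and those lost under at least 1 were Cdt1, Gins1, Mcm6, Mcm10, Pold1, Pold3, Prim2, Rfc2, Rfc3, Rfc5, Rpa1 and Rrm1. Pold3, Rfc3 and Rrm1 lost theirs under 16, 14 and 13 of 21 alternatives, and Pold1 under 8.

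**Figure D3:**
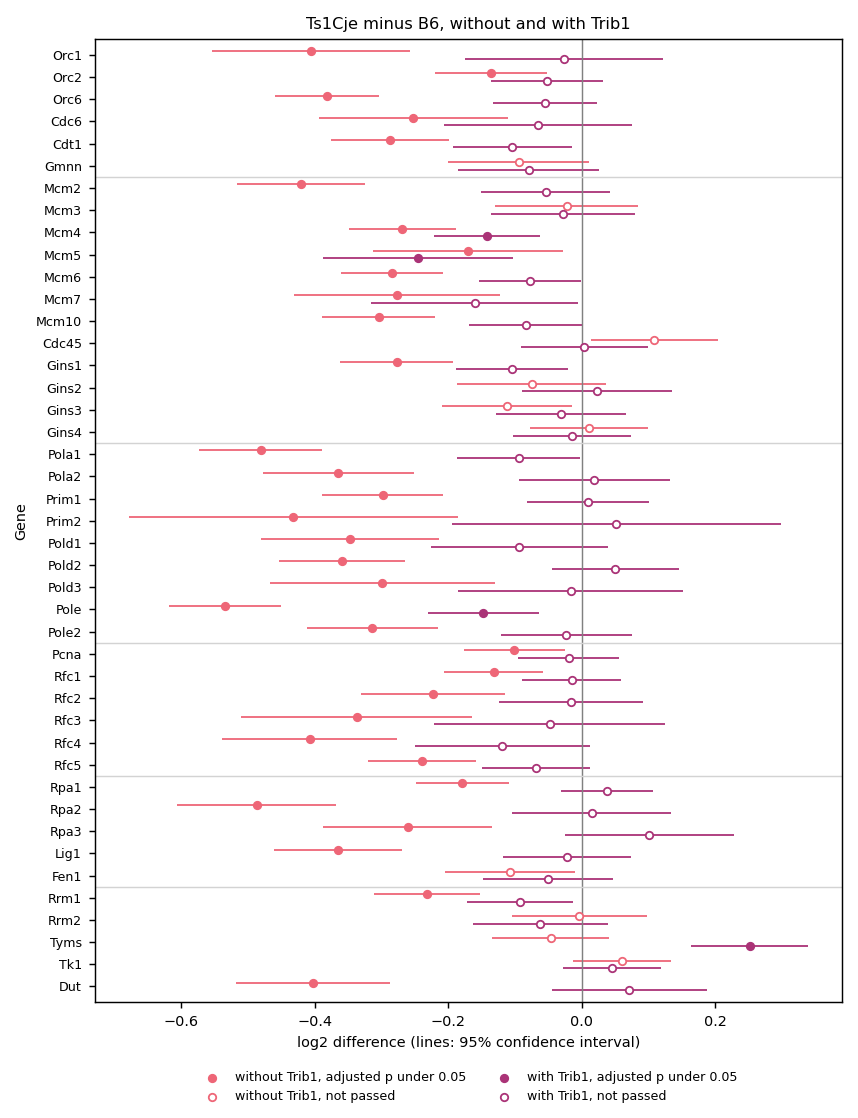
Difference between Ts1Cje and B6 (horizontal axis, log2) for each of the 43 replication genes (vertical axis, grouped by function) without Trib1 and with Trib1; lines are 95% confidence intervals and filled points passed at an adjusted p under 0.05. Without Trib1 33 genes fell, with Trib1 3 fell and Tyms rose.

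Each leukaemia group was then set against cells of its own background without Trib1. Most replication genes were higher with Trib1 in the Ts1Cje background, and fewer were in the B6 background. In B6 Trib1 against B6, 20 of 43 genes rose, against 34.1% of all genes, and 3 fell (Orc1, Pold1 and Pold2), against 31.1% of all genes, with a median log2 difference of 0.094 where all genes had 0.030. In Ts1Cje Trib1 against Ts1Cje, 34 of 43 rose, against 34.1% of all genes, and 0 fell (limma, 0 also at an unadjusted p under 0.05), against 26.8% of all genes, with a median of 0.29 where all genes had 0.022. These comparisons share no arrays. 18 genes rose in both, 14 rose in the Ts1Cje background alone, and Orc1 and Pold2 fell in the B6 background and rose in the Ts1Cje background. Cdc45 and Mcm5 rose in the B6 background alone, Pold1 fell there alone, and 6 genes (Orc2, Cdt1, Gmnn, Gins2, Pold3 and Rrm2) passed in neither. The test of the difference between the backgrounds is the interaction above.

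The largest rises in the B6 background were, by the probe sets that stood for the genes, those of Mcm3 (0.85), Rfc2 (0.81), Mcm7 (0.48), Tyms (0.43) and Rpa3 (0.37) on the log2 scale. In the Ts1Cje background they were those of Rfc2 (1.01), Mcm3 (0.85), Tyms (0.73), Rpa3 (0.73) and Rpa2 (0.66). In the B6 background Tyms turned to -0.090 without cross-hybridizing probe sets, and Mcm3 did not pass without B6 Trib1 array 1 or 2 (0.20 and 0.17). Scaling bore on the first comparison. With arrays centred on their medians, the median of all genes in B6 Trib1 against B6 moved from 0.030 to 0.13, 29 replication genes rose and 0 fell, against 50.6% and 21.9% of all genes, and Orc1, Pold1 and Pold2 did not pass. Mast cell and basophil markers moved with Trib1 in both backgrounds: all 5 rose, from sums of 2445 to 2504 to sums of 17766 to 18073 in the B6 background and from 4182 to 4434 to 20601 to 21266 in the Ts1Cje background. Of 6 B-cell genes 5 fell in each background, to sums of 157 to 185 and 165 to 183. All 5 megakaryocyte genes rose in both backgrounds, with median log2 differences of 1.73 and 2.24. Of 3 erythroid genes 3 rose in the B6 background and 2 in the Ts1Cje background. The erythroid sums went from 1090 to 1139 to 1684 to 1836, and from 540 to 593 to 2052 to 2137. Of 5 T and NK cell genes 2 rose and 3 fell in each background. Their sums went from 1039 to 1100 to 2040 to 2045, and from 961 to 1019 to 2633 to 2733. In the Ts1Cje background all 8 neutrophil granule genes fell, from sums of 32382 to 32794 to sums of 8469 to 8652, and all 8 monocyte and macrophage genes fell, with a median of -2.99. Within the B6 background 6 of 8 genes fell in each of these lists, with 1 granule gene and 2 monocyte and macrophage genes higher. Stem and progenitor genes divided, with 3 higher and 2 lower in each background, and of the 3 stroma genes 1 was higher and 1 lower in each. Their part in the replication values was not tested.

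**Figure D4:**
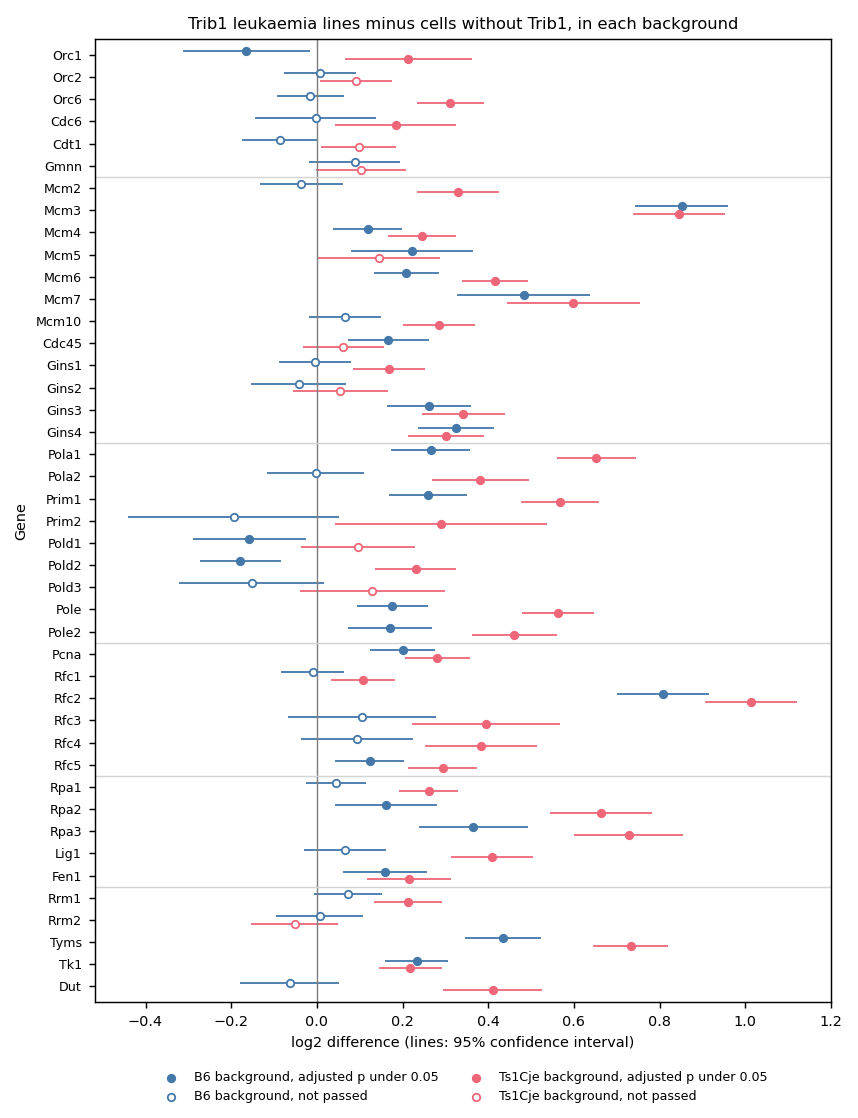
Difference between the Trib1 leukaemia lines and cells without Trib1 (horizontal axis, log2) for each of the 43 replication genes (vertical axis, grouped by function) in the B6 and the Ts1Cje background; lines are 95% confidence intervals and filled points passed at an adjusted p under 0.05. 20 genes rose in the B6 background and 34 in the Ts1Cje background, with Mcm3 and Rfc2 farthest to the right.

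Probe sets of the same gene gave a check that does not need other arrays. Of the 43 genes, 22 had several kept probe sets and 21 had 1. In a fit to all kept probe sets, in 0 of the 22 did probe sets pass in opposite directions in any of the 5 contrasts. The genes that follow were chosen after their values were seen. The 3 kept probe sets of Rfc2 gave 0.81, 0.66 and 0.83 in B6 Trib1 against B6 on the log2 scale. For Mcm3 the probe set that stood for the gene gave 0.85 in B6 Trib1 against B6 and the other 0.19. The 2 Rpa2 probe sets gave -0.49 and -0.068 between Ts1Cje and B6, and 0.16 and 0.75 in B6 Trib1 against B6. Those of Rrm1 gave -0.23 and 0.0063 between Ts1Cje and B6, and 0.072 and 0.62 in B6 Trib1 against B6. Both Prim1 probe sets fell in Ts1Cje, by 0.30 and 0.51, but in B6 Trib1 against B6 they gave 0.26 and 0.014.

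Tyms was measured by a probe set marked as matching several transcripts, and by 2 others. These had means of 53.4 and 44.6 in B6, and they fell by 0.37 and 0.27 in Ts1Cje against B6 (limma, adjusted p = 0.00207 and 0.0144) and gave 0.27 and 0.18 in Ts1Cje Trib1 against B6 Trib1. The probe set standing for Tyms gave -0.047 and 0.25 in the same comparisons. In B6 Trib1 against B6 it rose by 0.43, while the others gave -0.090 and -0.020. The direction of Tyms with Trib1 in the B6 background therefore rests on the probe set with possible cross-hybridization.

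Promoter matches were set beside the calls as a description. Of the 33 genes that fell in Ts1Cje against B6, 28 had a promoter window and 7 of these held an E2F spelling, among them the stretches of Orc1, Cdc6, Mcm5, Mcm6 and Pola1 printed above. Of the 10 that did not pass, 7 had a window and 1 (Gins3) held one. Of the 9 polymerase and primase genes, 7 had a window, and of these Pola1 held the spelling.

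Other genes of replication and nucleotide synthesis, 76 measured of 88 listed, were read beside them. In Ts1Cje against B6, 50 fell and 8 rose (65.8% and 10.5%, against 29.3% and 23.3% of all genes), with a median log2 difference of -0.19, and in Ts1Cje Trib1 against B6 Trib1, 10 fell and 15 rose (13.2% and 19.7%, against 9.63% and 11.9% of all genes), with a median of 0.013. In B6 Trib1 against B6, 19 rose and 23 fell (25.0% and 30.3%, against 34.1% and 31.1% of all genes), shares near or below the background. In Ts1Cje Trib1 against Ts1Cje, 49 rose and 12 fell (64.5% and 15.8%, against 34.1% and 26.8%). The interaction was positive in 47 and negative in 6 (61.8% and 7.89%, against 28.4% and 20.2%). By role, 10 of 11 further licensing and firing genes, 13 of 16 fork proteins, 5 of 5 folate and thymidylate genes, 8 of 11 purine genes and 4 of 8 pyrimidine genes fell in Ts1Cje against B6. Of 14 E2F, DP and pocket protein genes 9 fell and 2 rose, and of 5 genes of chromatin assembly and methylation 1 fell and 2 rose. Of 6 genes of deoxynucleotide salvage and turnover, 0 fell (limma, 0 also at an unadjusted p under 0.05) and 1 rose.

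Precursor synthesis held some of the largest differences. Dctd, the dCMP deaminase upstream of thymidylate, measured 193, 209 and 214 on the B6 arrays, 96.5, 99.7 and 104 on the Ts1Cje arrays, 159, 150.0 and 160.4 on the B6 Trib1 arrays and 197, 172 and 196 on the Ts1Cje Trib1 arrays. The Ts1Cje arrays read far below all others. Dctd gave -0.94 (SE 0.055, adjusted p = 2.38e-08) between Ts1Cje and B6, 0.24 (SE 0.055, adjusted p = 0.00577) with Trib1 and an interaction of 1.18 (SE 0.078, adjusted p = 7.35e-08). Dtymk, the thymidylate kinase, measured 735, 775 and 738 on the B6 arrays, 581, 491 and 514 on the Ts1Cje arrays, 1024, 999 and 1062 on the B6 Trib1 arrays and 1052, 1077 and 1034 on the Ts1Cje Trib1 arrays. Ts1Cje was lowest, B6 next, and the Trib1 groups overlapped above them. Dtymk gave -0.49 (SE 0.054, adjusted p = 7.61e-06) between Ts1Cje and B6 and rose by 0.98 with Trib1 in the Ts1Cje background. Prps2, which makes the ribose donor of purine and pyrimidine synthesis, measured 444, 456 and 448 on the B6 arrays, 320.1, 257 and 304 on the Ts1Cje arrays, 534, 566 and 595 on the B6 Trib1 arrays and 644, 660.5 and 681 on the Ts1Cje Trib1 arrays. The 4 groups did not overlap, in the order Ts1Cje, B6, B6 Trib1 and Ts1Cje Trib1. Prps2 gave -0.59 (SE 0.066, adjusted p = 7.95e-06) without Trib1 and 0.22 (SE 0.066, adjusted p = 0.0265) with it, the latter lost without any one of B6 Trib1 arrays 1 and 2 and Ts1Cje Trib1 arrays 2 and 3 (log2 differences from 0.19 to 0.23). Its rise with Trib1 in the Ts1Cje background was 1.14 (SE 0.066, adjusted p = 2.81e-09).

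At the fork, Timeless, a fork protection factor, measured 315, 311 and 309 on the B6 arrays, 205, 195 and 209 on the Ts1Cje arrays, 339.7, 366 and 346 on the B6 Trib1 arrays and 303, 293 and 279 on the Ts1Cje Trib1 arrays. Each Ts1Cje array was below every other array, and Ts1Cje Trib1 lay below B6 Trib1 without overlap. Timeless gave -0.58 (SE 0.042, adjusted p = 1.73e-07) and -0.25 (SE 0.042, adjusted p = 0.000688) without and with Trib1. The fall with Trib1 was lost under the mean of the probe sets (-0.15). Tfdp2, a dimer partner of E2F, measured 162, 156 and 173 on the B6 arrays, 99.5, 82.6 and 95.5 on the Ts1Cje arrays, 211, 206 and 205 on the B6 Trib1 arrays and 225, 209.6 and 222 on the Ts1Cje Trib1 arrays. Its Ts1Cje arrays were the lowest and both Trib1 groups the highest. Between Ts1Cje and B6 it gave -0.74 (SE 0.057, adjusted p = 3.15e-07), and it rose by 1.12 with Trib1 in the Ts1Cje background. Uhrf1, which maintains DNA methylation behind the fork, measured 1241, 1298 and 1223 on the B6 arrays, 927, 849 and 914 on the Ts1Cje arrays, 913, 943 and 922 on the B6 Trib1 arrays and 838, 823 and 841 on the Ts1Cje Trib1 arrays. Here the B6 arrays were the highest and the other groups lower, with -0.48 (SE 0.041, adjusted p = 7.5e-07) between Ts1Cje and B6 and -0.43 (SE 0.041, adjusted p = 7.43e-07) in B6 Trib1 against B6. Orc5 and Rbl2, an origin subunit and a pocket protein that represses E2F targets, rose with Trib1 by 0.50 and 0.85 in the B6 background and by 0.72 and 0.97 in the Ts1Cje background. Between Ts1Cje and B6 both fell, by 0.18 and 0.27, the Orc5 call being lost under quantile normalization (-0.092) and under median centring (-0.10).

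The named genes also held Samhd1, Nt5c and Rnaseh2c. Samhd1, which breaks down deoxynucleotides, measured 633, 602 and 629 on the B6 arrays, 594, 589 and 622 on the Ts1Cje arrays, 421, 402 and 415 on the B6 Trib1 arrays and 341, 367 and 369 on the Ts1Cje Trib1 arrays. Both Trib1 groups lay below both groups without Trib1, and the B6 and Ts1Cje arrays overlapped. Samhd1 fell with -0.57 (SE 0.042, adjusted p = 5.38e-08) in the B6 background and -0.72 (SE 0.042, adjusted p = 3.1e-09) in the Ts1Cje background. Nt5c, a nucleotidase of the same turnover, rose in both genotype comparisons, with 0.26 (SE 0.037, adjusted p = 7.69e-05) and 0.23 (SE 0.037, adjusted p = 0.000427). Rnaseh2c, a subunit of the enzyme that removes ribonucleotides from DNA, gave 0.15 (SE 0.048, adjusted p = 0.0168) without Trib1, lost without B6 array 1 (0.11) and without Ts1Cje array 1 (0.11), and -0.29 (SE 0.048, adjusted p = 0.000627) with it.

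Chaf1b and Gart were looked at in any case because they lie on chromosome 16 in the segment present in an extra copy. Chaf1b, the middle subunit of the chromatin assembly factor that works with PCNA, measured 175, 185 and 166 on the B6 arrays, 218, 220.0 and 227 on the Ts1Cje arrays, 205, 195 and 199 on the B6 Trib1 arrays and 323, 344 and 297 on the Ts1Cje Trib1 arrays. Every Ts1Cje array was above every B6 array, and every Ts1Cje Trib1 array above every B6 Trib1 array. Chaf1b rose with 0.31 (SE 0.052, adjusted p = 0.000252) without Trib1 and 0.64 (SE 0.052, adjusted p = 1.07e-06) with it, and its interaction was 0.33 (SE 0.074, adjusted p = 0.00268). Gart, a trifunctional enzyme of purine synthesis, measured 652, 640.3 and 626 on the B6 arrays, 675, 685 and 738 on the Ts1Cje arrays, 622, 618 and 576 on the B6 Trib1 arrays and 864, 869.9 and 794 on the Ts1Cje Trib1 arrays. The Ts1Cje arrays lay above the B6 arrays, and the Ts1Cje Trib1 arrays lay above all others. Gart rose with 0.13 (SE 0.049, adjusted p = 0.0461) without Trib1, a call lost under an offset of 1 and the replicate number as a block or without any one of B6 arrays 1, 2 and 3, Ts1Cje arrays 2 and 3, B6 Trib1 arrays 1 and 2 and Ts1Cje Trib1 arrays 1 and 2 (log2 differences from 0.087 to 0.14), and with 0.47 (SE 0.049, adjusted p = 1.22e-05) with Trib1. The interaction of Gart was 0.34 (SE 0.069, adjusted p = 0.00133). Gart had 4 kept probe sets. Of the other 3, 2 rose in Ts1Cje against B6, with 0.40 (adjusted p = 3.9e-05) and 0.27 (adjusted p = 0.000592), and 1 gave -0.044 (adjusted p = 0.442). Their interactions were 0.040 (adjusted p = 0.669), 0.22 (adjusted p = 0.0226) and 0.31 (adjusted p = 0.0021). By the probe sets that stood for them Chaf1b and Gart were thus higher in both trisomic groups, while 33 of the 43 replication genes were lower in Ts1Cje against B6.

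**Figure D5:**
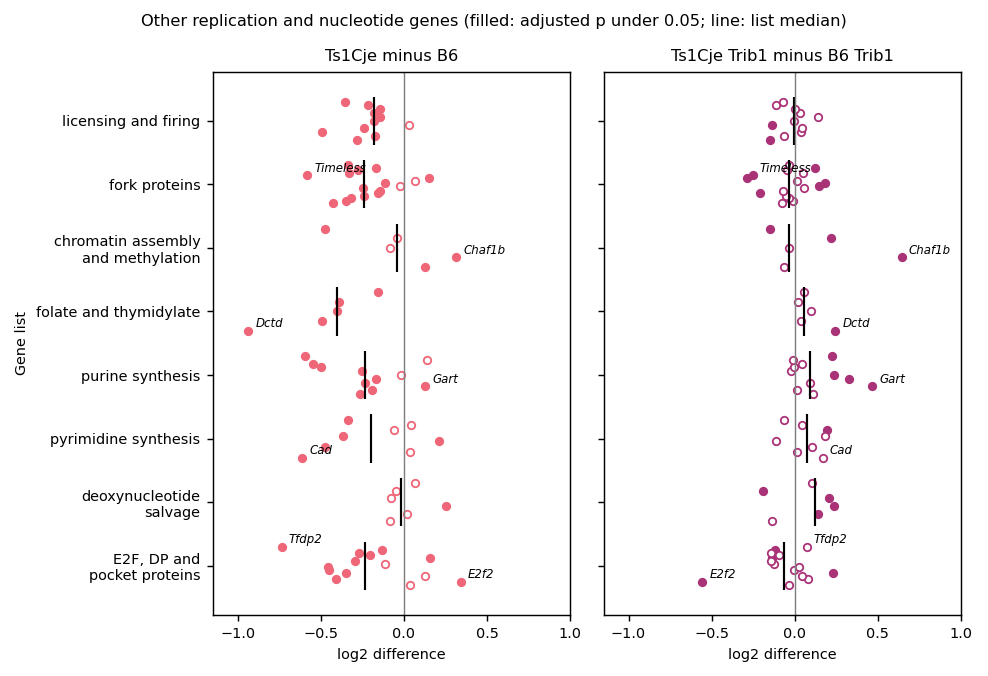
Difference between Ts1Cje and B6 without Trib1 (left) and with Trib1 (right) for 76 other replication and nucleotide genes, by list (vertical axis); the horizontal axis is the log2 difference, filled points passed at an adjusted p under 0.05 and black lines are list medians. Without Trib1 50 genes fell and 8 rose; Chaf1b and Gart rose in both panels, and Dctd was lowest on the left.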

How the data were processed

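The 12 arrays were grouped by their titles. The deposited values are the intensity of each probe set on a linear scale, computed by the authors with MAS5 per the submitters' processing notes. The arrays carry perfect-match probes alone, so how MAS5 was applied, and to which scaling target, is not settled, and no genome build is given in the sources used here. A probe set was kept when it exceeded its array's 40th percentile on at least 3 arrays, and each gene was represented by its kept probe set with the highest mean. Differences of log2(intensity + 15) draw dim genes towards 0. limma 3.58.1 in R 4.3.3 was fitted to all 12 arrays with 1 mean per group, tested on simulated data first, with two-sided tests and Benjamini-Hochberg adjustment over 12560 genes. The threshold was an adjusted p of 0.05. The number of arrays limits the precision.

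The members and lists were chosen with earlier results of these data known. Values on every array are given, in each of 6 functional groups, for up to 3 genes with the smallest adjusted p of any pairwise contrast, the gene with the smallest of the interaction, and genes that passed between genotypes against the direction of most of their group. Up to 4 other pathway genes with the smallest adjusted p per pairwise contrast are named, and Chaf1b, Gart and Donson in any case, although no probe set had Donson as its single symbol. Genes whose kept probe sets passed in opposite directions are also named. Gene symbols came from the platform annotation, which gave 28898 probe sets 1 symbol, 551 several and 15588 none (104 were controls), promoter sequences from RefSeq (GRCm38.p6). The scaling (quantile, median centring), the offset (1), the filter (none, 60th percentile), the choice of probe sets (their mean, cross-hybridizing ones removed), the variance model (trended and robust), the arrays fitted (2 groups alone, 1 array left out) and a block for replicate number were varied 1 at a time.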

Additional observations from a re-analysis of the deposited data

Results flagged for a closer look

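For 27 replication genes the genotype difference differed between cells without Trib1 and leukaemia lines with it, by the interaction term of the limma fit at an adjusted p under 0.05. The values are log2 differences, with Trib1 minus without Trib1, and all 27 were positive. Among licensing genes the interaction was 0.38 for Orc1, 0.33 for Orc6 and 0.18 for Cdt1. The other kept Orc1 probe set gave -0.022 (limma, adjusted p = 0.878). Among helicase genes the interaction was 0.37 for Mcm2, 0.21 for Mcm6, 0.22 for Mcm10 and 0.17 for Gins1. For polymerases and primase the interaction was 0.39 for Pola1, 0.38 for Pola2, 0.31 for Prim1, 0.48 for Prim2, 0.25 for Pold1, 0.41 for Pold2, 0.28 for Pold3, 0.39 for Pole and 0.29 for Pole2. In the clamp loader the interaction was 0.21 for Rfc2, 0.29 for Rfc3, 0.29 for Rfc4 and 0.17 for Rfc5. For single-strand binding and joining the interaction was 0.22 for Rpa1, 0.50 for Rpa2, 0.36 for Rpa3 and 0.34 for Lig1. In nucleotide supply the interaction was 0.14 for Rrm1, 0.30 for Tyms and 0.47 for Dut. With arrays centred on their medians 16 were positive, and the calls of Cdt1, Gins1, Mcm6, Mcm10, Pold1, Pold3, Prim2, Rfc2, Rfc3, Rfc5, Rpa1 and Rrm1 were lost under at least 1 alternative. Of 21 alternatives, Pold3 lost its call under 16, Rfc3 under 14, Rrm1 under 13, Pold1 under 8, and Prim2 and Rfc2 under 7 each. Gins1 lost its call under 4, Mcm10 under 2, and Cdt1, Mcm6, Rfc5 and Rpa1 under 1 each.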

How the results depend on the processing

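The fall of replication genes in Ts1Cje against B6 and the rise with Trib1 in the Ts1Cje background kept their direction and lay within 1.5 times of their counts under all alternatives, with 26 of 33 and 30 of 34 genes called under every one. Of 23 calls in B6 Trib1 against B6, 15 held throughout, of 4 in Ts1Cje Trib1 against B6 Trib1, 1 (Tyms), and of 27 interactions, 15. Under median centring the median of the genes was -0.20 in Ts1Cje against B6, 0.20 in B6 Trib1 against B6 (0.13 under quantile normalization) and 0.12 for the interaction, with 28 lower and 2 higher in Ts1Cje against B6, 0 lower in B6 Trib1 against B6, and 16 positive and 2 negative interactions. Genes higher in Ts1Cje against B6 were 2 under quantile normalization (Cdc45 and Tk1), 1 under the stricter filter (Cdc45) and 2 with the mean of probe sets (Cdc45 and Rrm2). Genes lower in B6 Trib1 against B6 were 1 under quantile normalization, and negative interactions were 1 under quantile normalization (Cdc45) and 1 with the mean of probe sets (Rrm2). The variance trend with robust moderation gave 6 lower in Ts1Cje Trib1 against B6 Trib1, with Cdt1, Mcm6 and Rrm1 added. Leaving out 1 array at a time gave 0 to 1 higher in Ts1Cje against B6, 2 to 4 lower in Ts1Cje Trib1 against B6 Trib1 and 1 to 4 lower in B6 Trib1 against B6, with 21 to 26 positive interactions. Rrm1 ran from -0.24 to 0.044 in Ts1Cje against B6 and from -0.14 to 0.16 for the interaction, since another probe set stood for it on leaving out some arrays: it gave 0.029, 0.0074 and 0.044 in Ts1Cje against B6 without B6 array 1, B6 array 2 and Ts1Cje array 1, and -0.12, -0.10, -0.076 and -0.14 for the interaction without B6 arrays 1, 2 and 3 and Ts1Cje array 1. Without cross-hybridizing probe sets Tyms gave -0.090 and Rnaseh2c 0.031 in B6 Trib1 against B6. With the mean of probe sets Shmt1 gave 0.0013 there and Rb1 0.041 in Ts1Cje Trib1 against B6 Trib1. The median of other pathway genes in B6 Trib1 against B6 was 0.046 and 0.088 under quantile normalization and median centring. The cause was not tested, except where another probe set stood for a gene.

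With the replicate number as a block, 1 gene was lower in B6 Trib1 against B6, where Orc1 and Pold1 lost their calls, and 33 genes were lower in Ts1Cje against B6. The labels do not say whether the numbers pair the arrays, and 3 arrays per group are too few to settle it. Across genes, deviations of same-numbered arrays correlated at -0.45 to 0.35, and 3 of 12 arrays were most like their own number. Dim probe sets, near the offset, have differences drawn towards 0.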
